A study of Mus musculus with 9 samples.

Results

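The data are the RNA of primary immature mouse neurons given a low dose of 2-deoxyglucose (2-DG) for 6 h, set against untreated neurons. The neurons came from embryos of embryonic day 14 and had been 2 days in vitro, and the medium of both groups held serum of fetal bovine and horse origin. The comparison takes 6 of the 9 libraries of the study, 3 of untreated cultures (0 mM, called control) and 3 of cultures with 1 mM 2-DG, chosen by the dose in their labels. The other 3 libraries, from cultures with 10 mM 2-DG for the same 6 h, entered the fit to estimate the spread between libraries. The labels call the replicates independent without saying whether they came from separate embryos or preparations, so p-values measure the spread between these libraries, which may in part be technical. Libraries carried replicate numbers 1, 2 and 3 in each group, and libraries with the same number were treated as a pair. The description covers all 15153 genes that passed the filter on low counts, and not only genes named in the title of the study, which names the growth factor BDNF and a pathway from stress of the endoplasmic reticulum (ER) to the transcription factor ATF4.

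2-DG is a glucose analogue that hexokinase phosphorylates but glycolysis cannot use further, and it also competes with mannose in the building of N-glycans, the sugar chains that help proteins fold in the ER. When unfolded proteins collect in the ER, the sensors PERK, IRE1 and ATF6 start the unfolded protein response, in which ATF6 and XBP1 raise ER chaperones and degradation factors through ER stress elements in promoters. PERK also phosphorylates the initiation factor eIF2alpha, as other kinases do when amino acids are scarce. This slows most translation, favours translation of ATF4, and starts the integrated stress response, in which ATF4 raises genes for amino acid import, amino acid synthesis and tRNA charging through composite C/EBP-ATF elements.

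Promoters of 5 genes that carry the main groups of the response are printed here, each as 250 bases before to 50 bases after the annotated start, from RefSeq on GRCm38.p6, 5′ to 3′ on the strand of the gene. In Chac1 (chr2:119350992-119351291, plus strand), which degrades glutathione and is induced by ATF4, and in Nupr1 (chr7:126625421-126625720, minus strand), a stress-induced nuclear protein, capitals mark a core of the composite element, TGATGNAA, read here on the opposite strand. In Hspa5 (chr2:34771840-34772139, plus strand), the main Hsp70 chaperone of the ER, and in Calr (chr8:84846882-84847181, minus strand), a chaperone that binds sugar chains, capitals mark an ER stress element, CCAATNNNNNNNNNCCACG, which in Calr lies on the opposite strand. In Mcm5 (chr8:75109259-75109558, plus strand), a subunit of the replicative helicase, capitals mark an E2F site, searched as TTTGGCGC or TTTCCCGC and found on the opposite strand.
Chac1: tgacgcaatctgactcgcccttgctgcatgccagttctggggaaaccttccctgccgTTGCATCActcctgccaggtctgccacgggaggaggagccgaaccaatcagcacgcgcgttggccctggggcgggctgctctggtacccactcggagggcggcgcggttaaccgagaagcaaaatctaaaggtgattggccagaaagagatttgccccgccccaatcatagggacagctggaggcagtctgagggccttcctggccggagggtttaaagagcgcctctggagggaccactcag
Nupr1: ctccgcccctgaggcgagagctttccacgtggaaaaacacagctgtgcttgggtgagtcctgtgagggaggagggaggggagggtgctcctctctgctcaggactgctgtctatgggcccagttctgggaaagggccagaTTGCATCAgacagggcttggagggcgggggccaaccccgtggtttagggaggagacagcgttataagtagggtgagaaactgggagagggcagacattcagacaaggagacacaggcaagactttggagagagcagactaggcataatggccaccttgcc
Hspa5: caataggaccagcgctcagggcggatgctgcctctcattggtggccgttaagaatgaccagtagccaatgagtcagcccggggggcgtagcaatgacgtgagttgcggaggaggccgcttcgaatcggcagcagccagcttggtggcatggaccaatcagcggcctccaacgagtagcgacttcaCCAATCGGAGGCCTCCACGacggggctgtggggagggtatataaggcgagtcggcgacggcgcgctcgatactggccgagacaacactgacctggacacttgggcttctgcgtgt
Calr: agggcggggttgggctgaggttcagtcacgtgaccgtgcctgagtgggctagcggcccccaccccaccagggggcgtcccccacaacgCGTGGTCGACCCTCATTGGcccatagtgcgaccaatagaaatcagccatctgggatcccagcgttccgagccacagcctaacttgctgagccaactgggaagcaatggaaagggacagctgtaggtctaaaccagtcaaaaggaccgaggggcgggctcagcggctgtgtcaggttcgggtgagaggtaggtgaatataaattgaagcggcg
Mcm5: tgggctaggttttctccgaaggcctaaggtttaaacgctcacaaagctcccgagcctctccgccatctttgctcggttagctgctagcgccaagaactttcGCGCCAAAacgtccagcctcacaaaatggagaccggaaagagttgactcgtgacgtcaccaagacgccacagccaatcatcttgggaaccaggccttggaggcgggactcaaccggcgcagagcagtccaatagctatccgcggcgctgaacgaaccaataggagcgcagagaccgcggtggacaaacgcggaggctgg
All motifs were searched on both strands. The composite core was found for 4.51% of the 27025 genes with a promoter sequence (2.8% of the 11107 such genes tested here) and for 6 of the 13 such genes among the 15 largest rises described below, Trib3, Nupr1, Cyb5r2, Slc7a11, Pck2 and Chac1. It was also found for 5 of 15 cytosolic aminoacyl-tRNA synthetases. The ER stress element was found for 0.137% of all genes (0.18% of those tested) and for 6 of 23 ER lumen chaperones, Hspa5, Hsp90b1, Dnajc3, Calr, Canx and Creld2. The E2F site was found for 1.8% of all genes (3.24% of those tested) and for 12 of 32 genes of the G1/S transition and DNA replication. A match describes letters within these 300 bases and says nothing of binding.

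At 1 mM, 2736 genes rose (18.1% of those tested), 2770 fell (18.3%) and 9647 did not pass, at an adjusted p below 0.05 by edgeR's quasi-likelihood test with the replicate number as a block and Benjamini-Hochberg adjustment, the source of every adjusted p below. Most of these differences were small. The median fold of the genes that rose was 1.16 and that of the genes that fell was 1.17, and 3320 of the 5506 called genes (60.3%) differed by less than 1.2-fold. At least a 2-fold difference was found for 177 genes that rose (1.17% of those tested) and 147 that fell (0.97%), and at least a 4-fold difference for 56 and 22. The sign was the same in all 3 pairs for 5424 of the called genes, and the groups did not overlap for 3424 (62.2%). Over all genes tested, the 3 treated libraries stood above the 3 controls for 14.7% and below them for 13.1%. Without the replicate block, 862 genes rose and 658 fell, so most small differences below were called only within pairs.

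**Figure D1:**
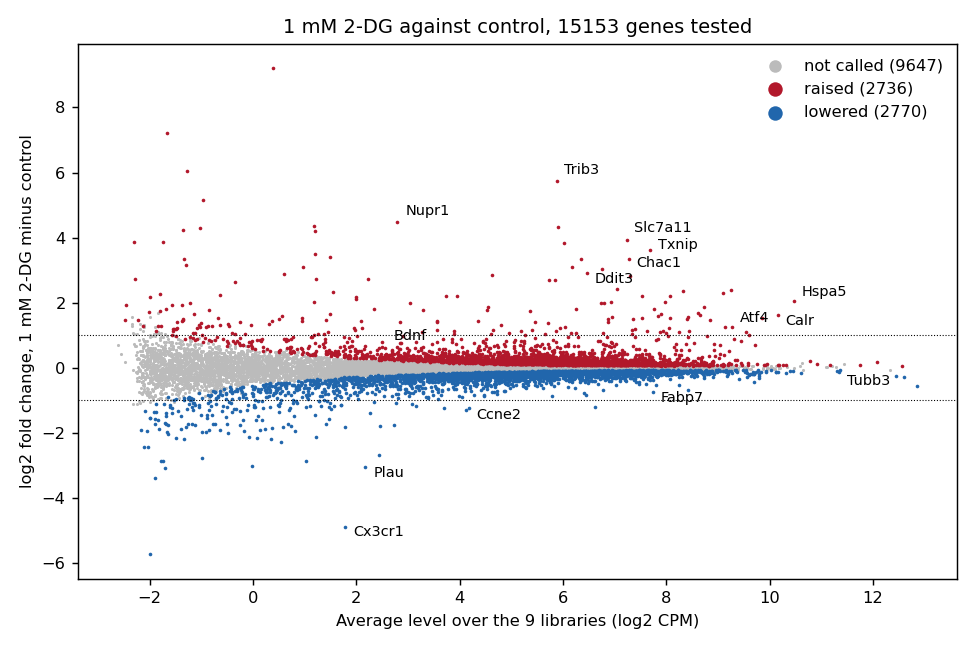
Log2 fold change at 1 mM against control (vertical axis) by average level in log2 CPM (horizontal axis) for the 15153 genes tested; red points rose (2736), blue points fell (2770) and grey points were not called (9647), and dotted lines mark a 2-fold difference. Calls crowd within the dotted lines, while Trib3 and Cx3cr1 lie far outside them.

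The labelled cell type was checked on fixed markers before the genes were read. The summed level of 8 markers of immature neurons, among them Dcx and Tubb3, was 6240 to 6560 CPM in the control and 6050 to 6230 at 1 mM. Of these 8, 1 fell, Tubb3 (log2 fold change -0.12, adjusted p = 0.00326, and 0.277 without the block). Its call was also lost without control replicate 1 or control replicate 3 (adjusted p = 0.056 and 0.0501). CPM stands for counts scaled to a common library size, here with trimmed means of M values. Markers of GABAergic neurons summed to 460 to 530 and 458 to 539 CPM. Other cells were present in smaller amounts. Markers of radial glia, the neural progenitors, summed to 1230 to 1550 CPM in the control and 1000 to 1210 at 1 mM, and 5 of 6 fell. Markers of microglia, the resident macrophages of the brain, summed to 36 to 52.7 CPM and 14.6 to 16.9 CPM, and 5 of 8 fell. Markers of the oligodendrocyte lineage were also lower (30.1 to 36.2 and 21.4 to 25.9 CPM, 2 of 3 tested fell). Astrocyte markers summed to 30.3 to 61.5 and 24.8 to 44 CPM, which overlapped, and 3 of 3 tested fell within pairs. In a longer list of astrocyte markers 6 of 9 fell, and 1 without the block. Endothelial (8.65 to 12.5 and 9.19 to 11.6 CPM) and fibroblast markers (19.2 to 63.7 and 18.7 to 72.9 CPM) also overlapped between groups, and the adult haemoglobin genes Hba-a1 and Hbb-bt were at 0 in all libraries. In RNA of whole cultures, fewer cells of a type and less RNA per cell cannot be told apart. Library totals ran from 40.1 M to 47.7 M counts in the 6 libraries, and the ribosomal RNA gene Rn45s held 0.96 to 1.05% of counts in the control and 0.589, 0.884 and 0.601% at 1 mM. The part of these differences in the results below was not tested.

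The largest rises at 1 mM were ranked among genes whose average log2 CPM over all 9 libraries was 1 or more. This floor left out genes with few counts such as Adm2, described below. Of the 15 largest rises, 5 were in the lists of the integrated stress response, Trib3, Nupr1, Chac1, Eif4ebp1 and Ddit3. These lists hold 9 and 13 of the 15153 genes tested. Trib3 (chromosome 2, 152337422 to 152344032, minus strand), a pseudokinase that dampens ATF4 signalling, stood at 1.13, 0.937 and 1.64 CPM in control replicates 1, 2 and 3 and at 72.9, 54.1 and 74.4 CPM in the treated ones. The groups lay far apart, and the rise was 53.8-fold (log2 fold change 5.75, SE 0.10, adjusted p = 4.58e-20). Nupr1 went from 0.319, 0.388 and 0.393 CPM to 6.87, 7.29 and 10.7 CPM, again without overlap (4.49 on the log2 scale, SE 0.15, adjusted p = 8.02e-16). Trim66, a bromodomain protein known from chromatin, went from 2.57, 3.56 and 2.62 CPM to 54.2, 51.2 and 71.2 CPM (log2 fold change 4.33, SE 0.094). Treated replicate 2 had the lowest treated level of both Trib3 and Trim66, and it still lay above every control. The other 12 of these 15 largest rises were Cyb5r2, Cass4, Slc7a11, Slc7a3, Txnip, Derl3, Gdf15, Pck2, Chac1, Slc6a9, Eif4ebp1 and Ddit3. Their log2 fold changes ran from 4.36 (Cyb5r2, a cytochrome b5 reductase) to 2.91 (Ddit3). The fold of Cyb5r2 rests on few counts and moved with single libraries, to 5.21 without control replicate 2 and to 3.66 without control replicate 3, and exons of Ppfibp2 overlap it on the other strand. Cass4, a scaffold protein of cell adhesion, stood at 0.098, 0.0914 and 0.0872 CPM in the control and at 1.68, 1.42 and 2.09 CPM at 1 mM.

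**Figure D2:**
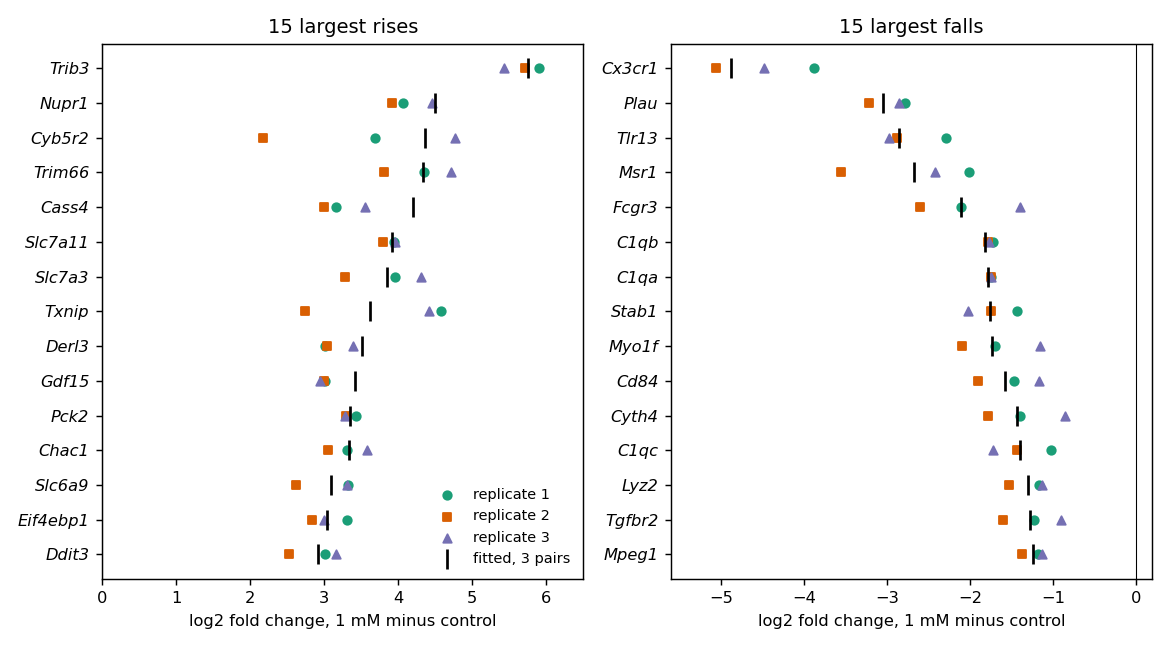
Log2 fold change at 1 mM against control in each replicate pair (points, CPM plus 0.1) and as fitted over the 3 pairs (black bar). Shown are the 15 largest rises and the 15 largest falls among genes whose average log2 CPM over all 9 libraries was 1 or more. All pairs of each gene lie on the same side of 0; for genes with controls near 0 CPM, such as Cass4, the added 0.1 pulls the points below the fitted value of 4.20.

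Of 9 tested transcription factors of the integrated stress response, 8 rose, 0 fell and Foxo3, named after its value was seen, did not pass (list median log2 fold change 1.86, against 0.0034 over all genes). The same 8 and 0 were counted without the block. Atf4 (chromosome 15, 80255184 to 80257541, plus strand), the central factor, stood at 302, 220.3 and 303 CPM in the control and at 689, 509 and 765 CPM at 1 mM. Replicate 2 was the lowest in both groups, and its fold was like those of the other pairs. The groups did not overlap (log2 fold change 1.25, SE 0.049, adjusted p = 2.22e-14). Ddit3, which encodes CHOP, rose from 13.1, 13.8 and 12.7 CPM to 106, 79.9 and 114 CPM (log2 fold change 2.91, SE 0.079). Cebpb, a partner of ATF4 in the composite element, rose from 2.21, 2.79 and 2.38 CPM to 10.8, 8.96 and 14.4 CPM (2.20, SE 0.13), and exons of Tmem189 overlap it on the other strand. Of 13 feedback genes and eIF2alpha kinases, 9 rose and 1 fell. Chac1 rose from 19, 13.5 and 16.6 CPM to 189, 113 and 200.4 CPM (log2 fold change 3.34, SE 0.099). Eif4ebp1, which holds back the cap-binding factor eIF4E, rose 8.24-fold, and Sesn2, a stress-induced inhibitor of mTORC1, rose 7.04-fold. Ddit4, another mTORC1 inhibitor, rose 2.64-fold. The kinase gene that fell was Eif2ak2, which encodes the sensor of double-stranded RNA (log2 fold change -0.55, SE 0.089; adjusted p = 0.149 without the block).

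Genes of the ER folding machinery rose together. Hspa5 (chromosome 2, 34771970 to 34777547, plus strand) stood at 348, 337 and 354 CPM in the control and at 1402, 1349 and 1617 CPM at 1 mM. Its controls lay within a narrow range, far below the treated libraries (log2 fold change 2.07, SE 0.032, adjusted p = 5.98e-21). Of 28 tested ER lumen chaperones, 25 rose and 1 fell (89.3% raised, against 18.1% of all genes; list median 0.73; 20 and 0 without the block), and 12 rose at least 2-fold. Sdf2l1, which assists Hspa5, rose 6.52-fold from 9.9, 11.2 and 9.88 CPM to 61.5, 69.8 and 70.7 CPM. Calr rose from 402, 358 and 430.0 CPM to 1231, 1049 and 1402 CPM (3.08-fold). Hsp90b1, the Hsp90 of the ER, rose 2.92-fold, with exons of 1810014B01Rik on the other strand, and Creld2 rose 4-fold. Canx, the membrane-bound relative of Calr, rose by 0.71 on the log2 scale (SE 0.027), and Serpinh1, the chaperone of collagen, by 1.12 (SE 0.03). The member that fell was the prolyl isomerase Fkbp9 (-0.12, adjusted p = 0.0364), a call that was lost without any 1 of the 6 libraries compared (adjusted p from 0.0656 to 0.182).

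Of 13 sensors of unfolded proteins and related transcription factors, a list without PERK, 6 rose and 1 fell (4 and 0 without the block; list median 0.12). Xbp1, the factor that IRE1 activates by splicing, rose from 67.3, 74.8 and 62.4 CPM to 197, 182 and 213 CPM (log2 fold change 1.54, SE 0.054), and Creb3l2 rose by 1.22 (SE 0.12) from 2.05 ± 0.154 to 4.78 ± 0.397 CPM (SD, n = 3). Mbtps1, the protease that cleaves ATF6, fell (-0.10, adjusted p = 0.00639), a call lost without the block and without control replicate 1, treated replicate 1 or treated replicate 3 (adjusted p from 0.059 to 0.067). Atf6 rose by 0.67 (SE 0.038) and Eif2ak3, the PERK gene counted among the eIF2alpha kinases above, by 0.68 (SE 0.037), while Ern1, the IRE1 gene, did not pass. These 3 were named once their values had been seen. Of 20 protein disulfide isomerases and ER oxidases, which form and reshuffle disulfide bonds, 13 rose and 1 fell. Pdia4 rose by 1.63 (SE 0.038), Pdia6 by 1.46 (SE 0.034) and the oxidase Ero1lb by 1.43 (SE 0.063), and the ER peroxidase Prdx4 fell (-0.30, SE 0.045). Mir704 lies within an exon of Pdia4 on the same strand.

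Proteins that fail to fold are returned to the cytosol and degraded, and of 30 genes of this route, ER-associated degradation, 24 rose and 0 fell (14 and 0 without the block; list median 0.21). The rises were steep in a few members. Herpud1, which gathers the retrotranslocation complex, rose from 58.5, 54.5 and 57.6 CPM to 301, 247 and 335 CPM (5.15-fold). Derl3, a membrane protein of that complex, rose from 0.294, 0.343 and 0.284 CPM to 3.08, 3.55 and 3.91 CPM (11.4-fold, adjusted p = 4.11e-12). Vimp, which recruits the VCP segregase, rose 2.06-fold. Upstream and downstream of folding, 18 of 24 genes of the translocon and signal peptide processing rose and 0 fell (14 and 0 without the block). Their rises were small, with none reaching 2-fold, and were led by the signal peptidase subunits Sec11c (0.67, SE 0.055) and Spcs2 (0.66, SE 0.031). Of 39 genes of vesicle transport from the ER to the Golgi, 28 rose and 0 fell (22 and 0 without the block), with the coat protein Sec24d at 1.00 (SE 0.055), the retrieval receptor Kdelr3 at 1.05 (SE 0.15) and the fusion protein Bet1 at 0.75 (SE 0.068).

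N-glycan assembly, where 2-DG competes with mannose, had 21 of 43 genes raised and 1 lowered (17 and 1 without the block; list median 0.12). Magt1, a subunit of the oligosaccharyltransferase, stood at 43, 36.9 and 40.7 CPM in the control and at 89.7, 74.6 and 90.5 CPM at 1 mM, with no overlap (log2 fold change 1.08, SE 0.046). Alg12, a mannosyltransferase, rose by 0.80 (SE 0.078), and Slc35b1, which carries ATP into the ER, by 0.76 (SE 0.039). Ost4, the small subunit of the same transferase, fell (-0.35, SE 0.062). In the hexosamine pathway and the cycling of O-linked N-acetylglucosamine, 6 of 15 genes rose and 3 fell. The pair of enzymes that add and remove this sugar moved in opposite directions. Ogt, which adds it, rose from 254, 269.5 and 260.4 CPM to 379, 384 and 374 CPM (log2 fold change 0.54, SE 0.026). Mgea5, which removes it, fell from 374, 347 and 381 CPM to 227, 218 and 244 CPM (-0.68, SE 0.051). Neither gene overlapped between groups. Gfpt1, the entry enzyme of the pathway, rose by 0.40 (SE 0.029) and Gnpnat1, an acetyltransferase of the pathway, by 0.58 (SE 0.067).

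**Figure D3:**
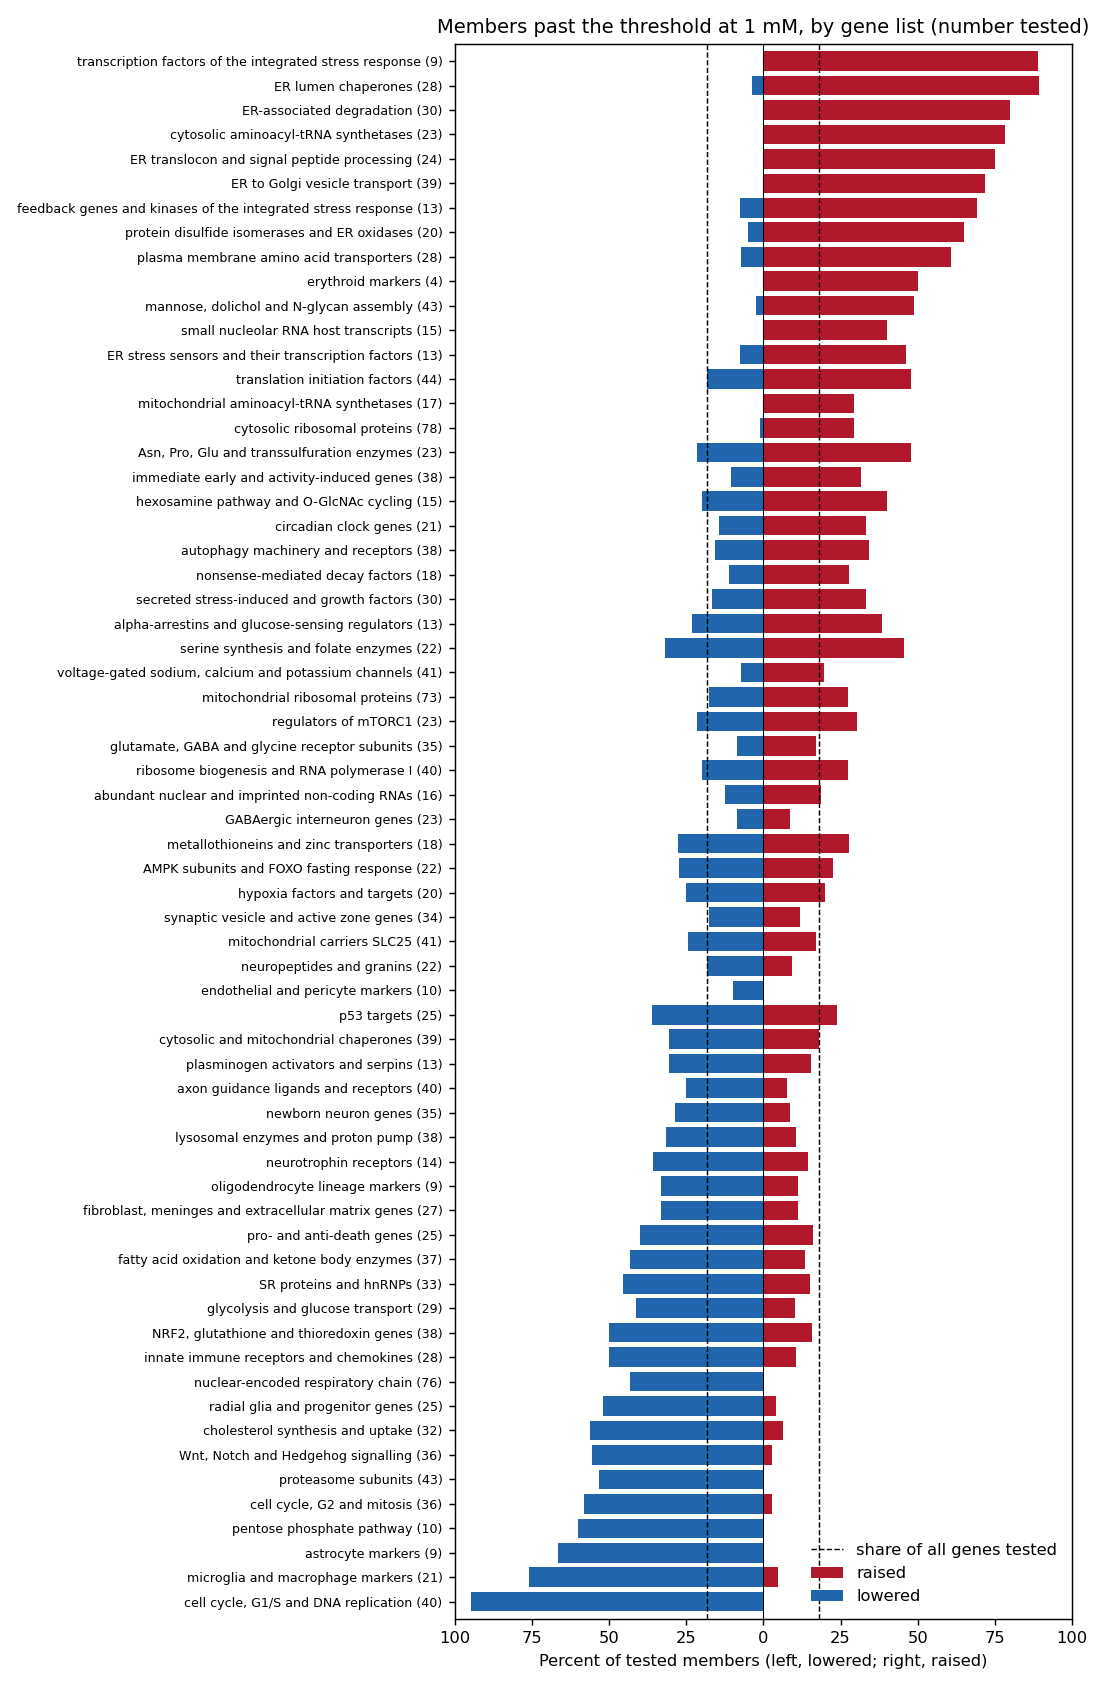
Percent of the tested members of each gene list (number tested in brackets) that rose (red, to the right) or fell (blue, to the left) at 1 mM, with dashed lines at the shares of all genes tested, 18.1% raised and 18.3% lowered. Lists of the stress response and the secretory pathway lie at the top, such as 25 of 28 ER lumen chaperones raised, and the list of G1/S genes, with 38 of 40 lowered, at the bottom.

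Amino acid supply was the other large group that rose. Of 28 plasma membrane amino acid transporters, 17 rose and 2 fell (10 and 1 without the block), and 7 rose at least 2-fold. Slc7a11 (chromosome 3, 49892526 to 50443614, minus strand), which imports cystine in exchange for glutamate, stood at 11.7, 10.01 and 13.9 CPM in the control and at 181, 139.7 and 218 CPM at 1 mM (15.1-fold, adjusted p = 1.22e-20). Slc7a3, a carrier of arginine and lysine, rose from 3.41, 5 and 2.79 CPM to 54.2, 49.3 and 57.2 CPM (14.4-fold). Slc6a9, the glycine transporter GlyT1, rose 8.51-fold, with exons of B4galt2 and Ccdc24 on the other strand, and Slc7a5, which imports large neutral amino acids, rose 5.2-fold. The members that fell were Slc6a6, the taurine transporter (-0.14, SE 0.026), and Slc16a10, an exporter of aromatic amino acids (-0.34, adjusted p = 0.0317), whose call was lost without control replicate 2, treated replicate 2, control replicate 3 or treated replicate 3 (adjusted p from 0.0851 to 0.226). Slc1a3, a glutamate transporter of glia and progenitors, rose by 0.15 (adjusted p = 0.623 without the block) in libraries where other progenitor genes fell.

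Enzymes of serine synthesis and the folate cycle moved in both directions. Of 22 such genes, 10 rose and 7 fell (9 and 1 without the block). Mthfd2, a mitochondrial enzyme of the folate cycle, rose from 41.8, 36.4 and 40.3 CPM to 193, 153 and 199 CPM (4.58-fold), and its mitochondrial neighbour Shmt2 rose 3.54-fold, with exons of Ndufa4l2 on the other strand. Psph, the last enzyme of serine synthesis, rose 3.48-fold, with exons of Cct6a on the other strand. Further members that rose included Aldh1l2, Mthfd1l, Phgdh, Psat1, Mtrr and Mtr. Those that fell included the cytosolic Tyms, Aldh1l1, Shmt1 and Mthfd1 and the mitochondrial glycine cleavage genes Gldc and Gcsh. Aldh1l1 is also an astrocyte marker, and its adjusted p was 0.516 without the block. Tyms, the thymidylate synthase, also stands in the list of G1/S genes, described below.

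Among enzymes of asparagine, proline, glutamate and transsulfuration, 11 of 23 rose and 5 fell (8 and 0 without the block; 3 fell without replicate 1 or 3 of either group). Asns, which makes asparagine, rose from 91.1, 104 and 90.9 CPM to 464, 424 and 531 CPM (4.94-fold). Gpt2, a mitochondrial alanine aminotransferase, rose 4.09-fold. Cth, the cystathionine lyase that makes cysteine, rose from 4.29, 3.2 and 7.18 CPM to 21, 19.6 and 26.9 CPM (4.62-fold), while Cbs, the enzyme before it, fell (-0.91, SE 0.21; adjusted p = 0.12 without the block). Cbs is also in the longer list of astrocyte markers, of which 6 of 9 fell. Pck2, the mitochondrial PEP carboxykinase and a known ATF4 target, rose from 10.8, 9.46 and 12.4 CPM to 118, 93.6 and 122 CPM, with a fold of 10.2 and the smallest adjusted p among the genes named here (4.52e-22).

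Aminoacyl-tRNA synthetases charge each tRNA with its amino acid, and of 23 cytosolic ones, scaffold proteins included, 18 rose and 0 fell (15 and 0 without the block; list median 0.41). The members that did not pass, named once their values had been seen, were Dars, Hars, Kars, Aimp2 and Eef1e1. Cars, for cysteine, rose from 78.6, 84 and 77.6 CPM to 245, 197 and 264 CPM (2.92-fold), Nars, for asparagine, rose by 1.27 on the log2 scale (SE 0.04) and Tars, for threonine, by 1.23 (SE 0.036). Aars and Gars rose 2.16-fold and 2.02-fold, and Exosc6 shares exon sequence with Aars on the same strand. Of 17 mitochondrial synthetases, 5 rose and 0 fell, a share of 29.4% against 18.1% of all genes. This count was 2 without treated replicate 1 or control replicate 3 and 0 without the block. The largest of these rises was in Wars2 (0.45, SE 0.086; adjusted p = 0.0547 without the block).

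Genes that report on glucose use gave small differences apart from a few. Txnip, an arrestin that limits glucose uptake and that sugar phosphates induce (chromosome 3, 96557957 to 96561883, plus strand), stood at 5.42, 24.1 and 6.39 CPM in the control and at 132, 162 and 139 CPM at 1 mM. Control replicate 2 stood well above the other controls, and the groups still did not overlap. The log2 fold change was 3.62 (SE 0.23, adjusted p = 7.30e-11), and 4.60 without control replicate 2. Exons of Gm15441 overlap Txnip on the other strand. Arrdc4, its closest relative among the alpha-arrestins, rose from 16.6, 18.7 and 15.2 CPM to 88.5, 89.5 and 91.1 CPM (5.32-fold). Of 29 genes of glycolysis and glucose transport, 3 rose and 12 fell (1 and 2 without the block; 5 rose without 10 mM replicate 2, and 7 fell without treated replicate 1). Pfkfb3, which makes the activator of phosphofructokinase, rose from 59, 62.3 and 59.5 CPM to 73.1, 71.4 and 73.8 CPM (0.27, SE 0.039). The largest falls of the list were in Slc16a3 (-1.035, the only 1 of at least 2-fold) and Aldoc (-0.52). Both calls were lost without the block (adjusted p = 0.208 and 0.273). Tpi1, the triosephosphate isomerase, fell from 104, 103 and 104 CPM to 78.1, 78.5 and 75.7 CPM (-0.42, SE 0.04), with exons of Spsb2 on the other strand. The 14 members that did not pass included the glucose transporters Slc2a1 and Slc2a3 and the hexokinases Hk1 and Hk2. In the pentose phosphate pathway 0 of 10 rose and 6 fell (0 and 3 without the block), such as Prps2, which makes phosphoribosyl pyrophosphate (-0.44, SE 0.056).

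Secreted factors included some of the steepest rises and the growth factor in the title of the study. Bdnf (chromosome 2, 109674700 to 109727007, plus strand) stood at 3.24, 3.36 and 4.51 CPM in control replicates 1, 2 and 3 and at 5.38, 5.24 and 6.18 CPM in the treated ones. Replicate 3 was the highest in both groups, and each treated library lay above every control. The log2 fold change was 0.60 (SE 0.099, adjusted p = 7.26e-05), a 1.51-fold rise. The adjusted p was 0.0281 without the block. Of 30 secreted factors, 10 rose and 5 fell (8 and 3 without the block), shares of 33.3% and 16.7%. Gdf15, a stress-induced cytokine, rose from 0.294, 0.274 and 0.196 CPM to 3.06, 2.9 and 2.18 CPM (10.6-fold), and Vegfa, the growth factor of blood vessels, from 27.2, 34 and 27.3 CPM to 115, 112 and 133 CPM (4.08-fold). Fgf21, a fasting hormone, had 2 counts in the 3 control libraries together and 86 in the 3 treated ones, a ratio of 41.8 after scaling to depth (95% exact interval 11.2 to 350, counting error only). Adm2, a peptide of the calcitonin family, had 0 counts in the control and 223 at 1 mM, which is at least 72.2-fold higher against a floor of 3 counts over the control group, and the exact 95% interval of its ratio starts at 58.2. Igf1 fell from 10.3, 12.6 and 10.6 CPM to 7.8, 5.84 and 5.75 CPM (-0.78, SE 0.1), and Metrn, a neurotrophic factor of glia, fell by 0.48 (SE 0.057), both without overlap. Igf1 is made by microglia among other cells, and the markers of microglia and of radial glia were lower in the same libraries, a part that was not tested.

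Of 44 translation initiation factors, 21 rose (47.7%, against 18.1% of all genes) and 8 fell (18.2%, near the 18.3% of all genes). Without the block, 8 rose and 5 fell. Besides Eif4ebp1, the beta subunit gene of eIF2, Eif2s2, rose by 0.93 (SE 0.04) and Eif1, which sets start codon choice, by 0.71 (SE 0.037). Eif5a2 (-0.40, SE 0.057) and Eif5a (-0.29, SE 0.027), which help ribosomes past difficult sequences, fell. Of 78 cytosolic ribosomal protein genes, 23 rose (29.5%) and 1 fell (1.28%), with a list median of 0.06. Without the block 2 rose and 0 fell, and without treated replicate 1, 15 rose. All 3 treated libraries stood above all 3 controls for 6 of the 78, a lower share than the 14.7% of all genes. The member that fell, Rpl37a, lost its call without control replicate 1, treated replicate 1, control replicate 3 or treated replicate 3 (adjusted p from 0.0505 to 0.0885). Rpl10 had the largest rise (0.58, SE 0.061), and reads of ribosomal protein genes may be shared with their many pseudogenes. Among 15 tested host transcripts of small nucleolar RNAs, which end in nonsense-mediated decay when translated, 6 rose and 0 fell (4 and 0 without the block). Snhg12 rose from 17.1, 18.6 and 20.6 CPM to 38.4, 37.2 and 48.1 CPM (2.19-fold), Snhg1 by 0.84 (SE 0.045) and Snhg5 by 0.80 (SE 0.06), and the small nucleolar RNAs that Snhg12 hosts overlap its annotated exons.

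Among all lists examined, genes of the G1/S transition and DNA replication had the highest share of lowered members. Of 40, 0 rose and 38 fell (95% lowered, against 18.3% of all genes; list median -0.47), and 14 fell without the block. The exceptions were Prim1 and Cdc45, named once their values had been seen. Ccne2 (chromosome 4, 11191351 to 11204779, plus strand), an E-type cyclin that starts S phase, stood at 33.6, 25.4 and 38.8 CPM in the control and at 14.3, 11.1 and 16.1 CPM at 1 mM. Replicate 2 was the lowest in both groups, and the groups did not overlap (log2 fold change -1.23, SE 0.058, adjusted p = 4.44e-13). Exons of Ints8 overlap Ccne2 on the other strand. Ccne1 fell from 17.4, 11.7 and 17 CPM to 6.35, 5.82 and 8.04 CPM (-1.19, SE 0.086) and E2f2, an activating E2F factor, fell from 20.3, 14.2 and 23.6 CPM to 9.95, 8.55 and 11 CPM (-0.97, SE 0.07). Genes of G2 and mitosis differed less. Of 36, 1 rose, the kinetochore motor Cenpe, and 21 fell (0 and 0 without the block), with a median of -0.14 and no gene whose groups were apart. Cdk1, the mitotic kinase, had 91.4, 70.2 and 94.9 CPM in the control and 67, 56.3 and 71.2 CPM at 1 mM (-0.40, SE 0.036; adjusted p = 0.0818 without the block).

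Of 25 radial glia and progenitor genes, 13 fell and 1, Slc1a3, rose (2 and 0 without the block). Fabp7, a lipid carrier of radial glia, stood at 385, 267 and 358 CPM in the control and at 220.2, 167 and 208 CPM at 1 mM (log2 fold change -0.76, SE 0.036). Nes, their intermediate filament, fell from 232, 193 and 269 CPM to 169.8, 138 and 186 CPM (-0.49, SE 0.033). The groups did not overlap for either gene. Pax6 and Sox9 were among the 11 members that did not pass. Of 36 genes of Wnt, Notch and Hedgehog signalling, which maintain progenitors, 20 fell and 1, the Notch target Hey2, rose (1 and 0 without the block). The call of Hey2 (0.42, adjusted p = 0.016) was lost without control replicate 1 or treated replicate 3 (adjusted p from 0.0695 to 0.102). Sfrp2, a secreted Wnt modulator, fell by 0.62 (SE 0.073). Olig1, a factor of the oligodendrocyte lineage, fell from 15.2, 12.9 and 13 CPM to 8.3, 7.15 and 7.14 CPM (-0.86, SE 0.082). The part of these lower levels in the fall of the replication genes was not tested.

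**Figure D4:**
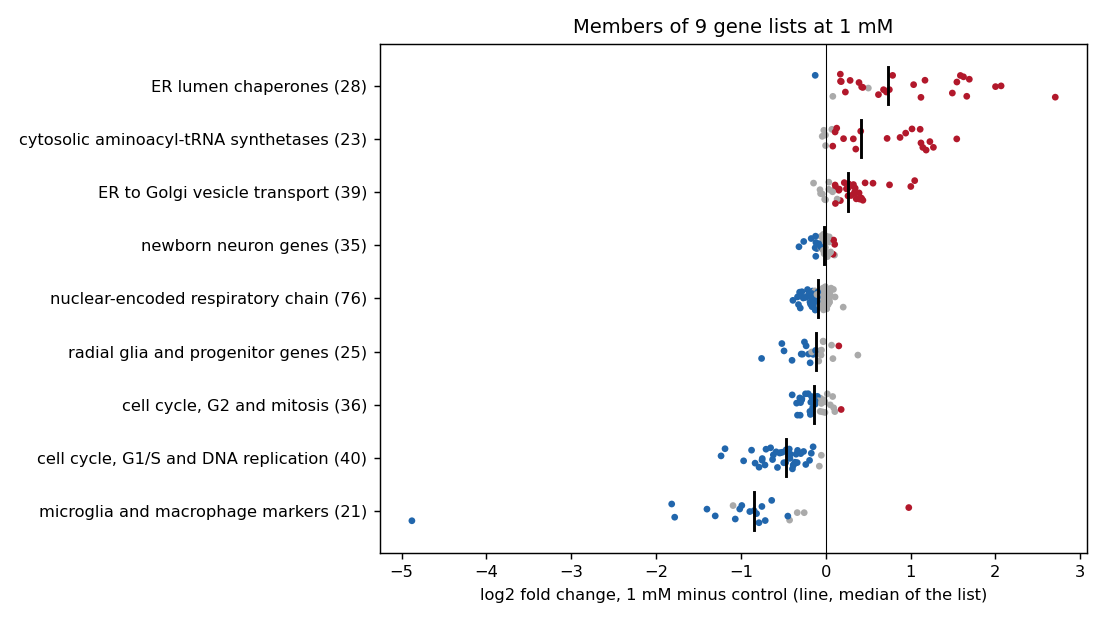
Log2 fold change at 1 mM against control for each tested member (point) of 9 gene lists, red where raised, blue where lowered and grey where not called, with a black bar at the median of the list. The bar lies at 0.73 for ER lumen chaperones, at -0.47 for G1/S genes and at -0.84 for microglial markers.

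Markers of microglia and macrophages had the lowest median of all lists examined. Of 21 tested markers, 16 fell and 1 rose (10 and 0 without the block; list median -0.84), and 7 fell at least 2-fold. Cx3cr1 (chromosome 9, 119901616 to 120069879, minus strand), the fractalkine receptor, stood at 6.25, 9.64 and 8.14 CPM in the control and at 0.331, 0.193 and 0.27 CPM at 1 mM. The treated libraries were all near 0 and far below the controls (log2 fold change -4.88, SE 0.23, adjusted p = 5.18e-13). The complement genes C1qa and C1qb fell less. C1qa went from 9.21, 13.2 and 7.72 CPM to 2.69, 3.86 and 2.22 CPM (-1.78, SE 0.09), and C1qb from 4.93, 7.77 and 4.97 CPM to 1.43, 2.2 and 1.39 CPM (-1.82, SE 0.12). Lyz2, a lysozyme of macrophages, had 33.3, 40.1 and 12.6 CPM in the control and 14.8, 13.8 and 5.68 CPM at 1 mM, so the groups overlapped and each pair fell (log2 fold change -1.30, SE 0.069; adjusted p = 0.115 without the block). Microglial genes ranged from a 29.4-fold fall to no call, the latter for Aif1, P2ry12, Tmem119 and Ptprc, named once their values had been seen. The member that rose was Cd14, a co-receptor of bacterial lipids, at 1.89, 4.78 and 2.44 CPM in the control and 4.82, 7.32 and 5.32 CPM at 1 mM (adjusted p = 4.23e-06, and 0.14 without the block).

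Outside that list, other genes of myeloid cells were among the 15 largest falls. Plau, the urokinase that activates plasminogen, fell from 11.1, 14.3 and 6.63 CPM to 1.53, 1.45 and 0.831 CPM (log2 fold change -3.05, SE 0.14, adjusted p = 2.61e-13). Msr1, a scavenger receptor, fell from 10.00, 15.5 and 8.83 CPM to 2.4, 1.23 and 1.57 CPM (-2.68, SE 0.17). In both genes every treated library lay below every control. Tlr13 (-2.85), which senses bacterial ribosomal RNA, Fcgr3 (-2.11), an antibody receptor, Stab1 (-1.75), a scavenger receptor with exons of Nt5dc2 on the other strand, and Myo1f (-1.73), a myosin of leukocytes, fell as well. So did Cd84 (-1.58), Cyth4 (-1.43), Tgfbr2 (-1.27), the receptor of TGF-beta, and Mpeg1 (-1.24), a pore-forming protein of macrophages. Of 28 innate immune genes, 14 fell and 3 rose (10 and 1 without the block). Tlr2, the receptor of bacterial lipopeptides, rose from 1.05, 0.914 and 0.894 CPM to 2.34, 3.19 and 2.74 CPM (2.88-fold) in the libraries where Tlr13 fell. The summed level of microglial markers was 14.6 to 16.9 CPM in the treated libraries against 36 to 52.7 in the control, and its part in the falls of this paragraph was not tested.

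In the nuclear-encoded respiratory chain, 33 of 76 genes fell and 0 rose (9 and 0 without the block; list median -0.09). Uqcrh, a subunit of complex III, fell from 117, 106 and 114 CPM to 87.5, 88.8 and 81.2 CPM (-0.39, SE 0.038), and its groups did not overlap. Of 43 proteasome subunits and assembly factors, 0 rose and 23 fell. That count was 1 without the block, 11 without replicate 1 of either group, 12 without control replicate 3 and 8 without treated replicate 3, and Pomp, which assembles the core, fell by 0.25 (SE 0.034). Of 73 mitochondrial ribosomal protein genes, 20 rose (27.4%, against 18.1% of all genes) and 13 fell (17.8%, near the 18.3% of all genes). Without the block, 1 rose and 5 fell. Of the 73, 12 rose without control replicate 3 or treated replicate 3, and 8 fell without treated replicate 1 or treated replicate 3. Hspa9, the mitochondrial Hsp70, rose from 414, 361 and 400.1 CPM to 726, 598 and 771 CPM (0.83, SE 0.032).

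Of 32 genes of cholesterol synthesis and uptake, 18 fell and 2, the synthesis enzymes Mvd and Sc5d, rose (6 and 0 without the block; list median -0.16). The call of Sc5d was lost without control replicate 1, treated replicate 1 or treated replicate 3 (adjusted p from 0.0826 to 0.123). The regulator Srebf1 (-0.40, SE 0.044) and the carrier Stard4 (-0.32, SE 0.063) fell, and neither reached a 1.5-fold difference. Among 38 genes of the NRF2, glutathione and thioredoxin systems, 19 fell and 6 rose (10 and 4 without the block). Of those with the largest rises, Slc7a11 is also an amino acid transporter and Chac1 is in a list of the integrated stress response. Gsta4, a glutathione transferase (-0.60, SE 0.059), Gpx8, an ER peroxidase (-0.57, SE 0.075), and Prdx1, a cytosolic peroxidase (-0.41, SE 0.031), fell. Of the metallothioneins, which bind zinc and copper, Mt3 fell from 26.2, 21 and 30.5 CPM to 15, 10.9 and 16.8 CPM (-0.87, SE 0.059), and Mt1 fell by 0.50 (SE 0.062). Of 38 lysosomal genes, 4 rose and 12 fell (1 and 6 without the block), and the raised count was 1 or 2 without control replicate 1 or 3 or treated replicate 1 or 2. Those that fell included Gusb (-0.82, SE 0.079) and Ctsz (-0.71, SE 0.052), which macrophages also express strongly. The lower level of microglial markers stands beside these lysosomal falls, and its part was not tested.

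Some of the 344 genes that rose by at least 1.5-fold lay outside those groups, and a few are given here. Ciart, a repressor of the circadian clock, rose from 2.28, 1.28 and 1.77 CPM to 7.28, 4.35 and 9.77 CPM (4.01-fold). Gadd45a, a growth arrest gene, rose 2.63-fold, with exons of E230016M11Rik on the other strand. Hrk, which promotes cell death by binding BCL2 proteins, rose from 24.6, 33.3 and 21.9 CPM to 43.2, 53.9 and 45.9 CPM (1.8-fold), while Bmf, of the same family, fell by 0.63 (SE 0.074). Acot2, a mitochondrial thioesterase, rose 3.39-fold, and its neighbour gene Acot1, a near copy in the cytosol, fell (-0.55, SE 0.056), values that shared reads could blur. Of 25 p53 targets, Gadd45a included, 6 rose and 9 fell (3 and 0 without the block), and Cdkn1a did not pass. These are shares of 24 and 36%, against 18.1 and 18.3% of all genes. The fall count was 4 without replicate 1 of both groups.

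Neuronal identity and synaptic lists stayed near the share of all genes or below it in the raised direction. Of 35 newborn neuron genes, 3 rose and 10 fell, shares of 8.57 and 28.6% against 18.1 and 18.3% of all genes. The fall count was 6 without control replicate 1 or 3 and 1 without the block. Cd24a, a surface protein of young neurons, fell from 1146, 1121 and 1088 CPM to 909.9, 934 and 854 CPM (-0.32, SE 0.03). Of 23 GABAergic interneuron genes, 2 rose and 2 fell, and of 35 receptor subunits for glutamate, GABA and glycine, 6 rose and 3 fell (0 and 0 without the block). No member of the receptor list differed by as much as 1.5-fold. Sort1, which sorts neurotrophins and their receptors, fell (-0.28, SE 0.03), while the BDNF receptor gene Ntrk2 did not pass. Of 38 immediate early and activity-induced genes, 12 rose (31.6%, above the 18.1% of all genes) and 4 fell (10.5%). But 7 rose without control replicate 3, 6 without treated replicate 3 and 3 without the block, and Arc, Npas4 and Egr1 did not pass. Nfil3 (0.48, SE 0.056) and Klf4 (0.46, SE 0.078) rose.

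At the scale of the whole libraries, genes that rose gained 4.07% of counts and genes that fell lost 3.48%. Of the 10 largest gains, Hspa5 gained 1110 CPM, Calr 831, Hsp90b1 657, Slc7a5 438, Atf4 379, Aars 378, Asns 378, Gars 364 and Canx 340 CPM, and all 10 together made up 13.3% of the total gain. The other of the 10, the elongation factor gene Eef2, gained 526 CPM through a small fold of 1.14 (adjusted p = 0.0721 without the block). Among the losses, Rn45s dropped by 3079 CPM, the actin gene Actb dropped by 1366 CPM, the tubulin gene Tuba1a dropped by 1118 CPM and the actin-binding Tmsb4x dropped by 292 CPM, and the 10 largest losses made up 20.1% of the total loss. Both loss shares include Rn45s, a ribosomal RNA that the libraries were depleted of. It held an uneven 0.589, 0.884 and 0.601% of counts in treated replicates 1, 2 and 3. The part of the depletion step in its drop was not tested. Actb stood at 7727, 7277 and 7660.0 CPM in the control and at 6305, 6164 and 6098 CPM at 1 mM, a fold of 1.22 between control and treated libraries, with no overlap. These values are counts moved, which depend on gene length as well as on the number of RNA molecules.

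The 10 mM libraries show which of these genes had most of their difference at 1 mM. Both contrasts below share the 1 mM libraries, so their values stand side by side and are not independent. In the contrast of 10 mM with 1 mM, 30.7% of all genes were higher and 25.6% lower. Pck2 stood at 129, 107 and 129.9 CPM at 10 mM, a further log2 fold change of 0.14 (SE 0.034, adjusted p = 0.00151) after 3.34 at 1 mM. Magt1 had a further 0.06 (SE 0.043, adjusted p = 0.24), Derl3 -0.27 (SE 0.12, adjusted p = 0.0673) and Cyb5r2 0.30 (SE 0.18, adjusted p = 0.162), none past the threshold. Sdf2l1 rose further by 0.26 (SE 0.044). Txnip (a further 1.70, SE 0.17), Arrdc4 (1.69, SE 0.063), Slc7a3 (1.35, SE 0.062) and Snhg12 (1.48, SE 0.049) had larger further rises. Bdnf had a further 0.55 (SE 0.088), close in size to its 0.60 at 1 mM.

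Other genes turned back at the higher dose. Cx3cr1 stood at 2.5, 1.68 and 1.69 CPM at 10 mM, above all treated libraries of the low dose and below all controls (log2 fold change 2.85 against 1 mM, SE 0.30, adjusted p = 8.52e-08). Mgea5 went to 406, 481 and 411 CPM (0.91, SE 0.051) and Ogt to 290.2, 292 and 288 CPM (-0.39, SE 0.026), opposite to their directions at 1 mM. Cd14 (-0.92, SE 0.13) and Tlr2 (-0.48, SE 0.15) were lower at 10 mM than at 1 mM. Ccne2 (-0.83, SE 0.069) and Fabp7 (-0.90, SE 0.037) fell further. The change between doses of Plau (0.38, adjusted p = 0.0923) did not pass.

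**Figure D5:**
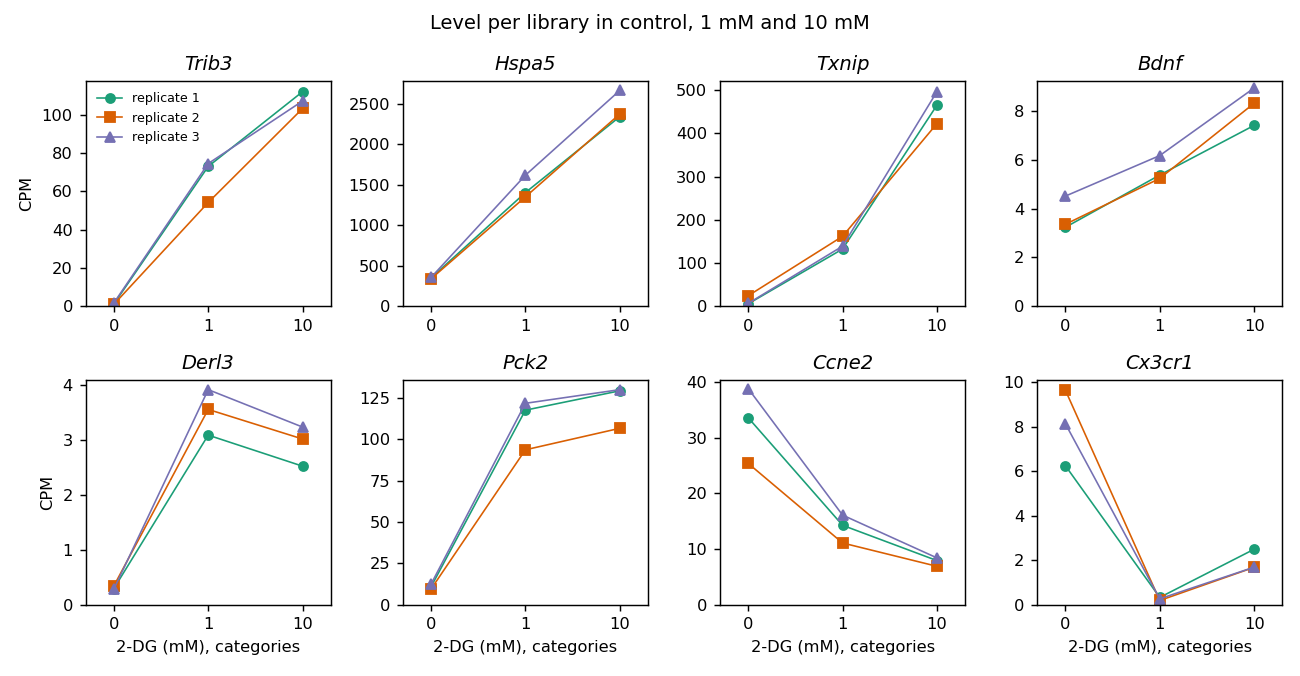
Level in CPM (vertical axis, a separate scale for each gene) in each of the 9 libraries against the 2-DG dose, 0, 1 and 10 mM, drawn as evenly spaced categories; lines join libraries with the same replicate number. Trib3, Hspa5, Txnip and Bdnf climb over both steps, Derl3 and Pck2 change mainly at the first, and Cx3cr1 is lowest at 1 mM.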

How the data were processed

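RNA was measured in 9 libraries of cultured mouse neurons. The cDNA (Ovation V2) went into stranded TruSeq libraries with RiboZero Gold depletion, and read pairs of 75 bases were aligned to mm10 by STAR 2.4.0, per the labels' protocols. Per the submitters' processing notes, bcl2fastq 2.17 and HTSeq were also used. Which annotation was counted, and whether with strand, is not given in the sources used here. Genes that overlap others on either strand are therefore uncertain. The authors deposited raw read counts per gene. Of 24061 table entries, 1 names no gene and 4 carry symbols altered by spreadsheet software. The first was kept out of library sizes and tests, and held at most 0.000216% of a library's counts.

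Genes were filtered with filterByExpr (minimum count 10, minimum total 15), scaled by TMM and fitted to all 9 libraries by group and replicate number with edgeR 4.0.16 (R 4.3.3, limma 3.58.1). The threshold was an adjusted p of 0.05, two-sided. The SE is the size of the log2 fold change divided by the square root of F. The pairing was checked on deviations from group means, whose correlation was 0.351 to 0.518 between libraries of the same number in the 9 pairs and -0.344 to -0.112 in the 18 others. DESeq2 1.42.0 served as an alternative. Gene positions come from GENCODE vM21 (GRCm38), promoters from RefSeq. Exact intervals cover counting error only, since reads carry no molecular identifiers.

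The rule for named genes took Bdnf, Atf4, Ddit3, Hspa5 and Txnip, and the 15 largest rises and falls among certain called genes. Those were genes of the same sign in each pair whose average log2 CPM over all 9 libraries was 1 or more. It also took the 10 largest gains and losses in CPM, and up to 3 called members per list and direction with exceptions to its main direction. Many of the genes that this rule took are only counted, within their lists, and some are not reported here. Genes given as not passing were named after their values were seen. The members and the 64 lists were chosen with earlier results of these data known.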

Additional observations from a re-analysis of the deposited data

Results flagged for a closer look

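A table entry with no gene name, labelled as an enhancer, lies outside the comparison and was higher in treated libraries than in the control. It had 10, 9 and 14 counts in control replicates 1, 2 and 3, 49, 22 and 44 at 1 mM and 84, 66 and 104 at 10 mM. Its mean level was 0.252 ± 0.0499 CPM in the control, 0.843 ± 0.27 CPM at 1 mM and 1.92 ± 0.346 CPM at 10 mM (SD, n = 3). At 1 mM, replicate 2 had the lowest level and still lay above every control. Where this entry lies in the genome is not given in the sources used here.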

How the results depend on the processing

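The fit with the replicate block called 2736 genes raised and 2770 lowered. Without the block, 862 rose and 658 fell, all of them among the calls of the blocked fit. Testing against a fold of 1.2 left 449 raised and 445 lowered genes. Testing against a fold of 1.5 left 179 and 108, and raised genes then made up 62.4% of calls against 49.7%. Other settings kept both counts within 1.5 times: 2980 and 2975 with only the 6 libraries compared, 2516 and 2971 with library totals in place of TMM, 2697 and 2751 with DESeq2 size factors, 2201 and 2123 with DESeq2's Wald test, 2528 and 2868 with a minimum total of 1, and 2442 and 2942 with a minimum count of 50. Leaving out a library or a whole replicate number gave 1705 to 3097 raised and 1618 to 2926 lowered genes. The lowest counts came without replicate 1, and the cause was not tested. No gene was called in the opposite direction under any of these settings. Of the 329 named genes, 159 lost their call without the block, 35 with DESeq2's Wald test and 180 with a minimum fold of 1.2. Depth limits genes near 0 in the control: Adm2, Fgf21, Cass4 and Cyb5r2 rest on few counts there.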
